A study of Mus musculus with 8 samples.

Results

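DNA transposons are the cut-and-paste class of mobile elements, and their remains in the mouse genome were followed here as 204 subfamilies. The members are all entries of the count table whose name ends in the class DNA, out of 1153 repeat subfamilies and 25215 entries in all. The second part of each name gives the family, and 13 families were present. The rule used only names, so no expression value chose the members. Entries of the uncertain class DNA? (21 entries) and of the rolling-circle classes RC and RC? (4 entries) were not counted as members.

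The cells were immortalized mouse embryonic fibroblasts, called 6KO in the labels, and poly(A) RNA was measured in them. All groups share the loss of Setdb1, Suv39h1/2, Ehmt1 and Ehmt2, which encode H3K9 methyltransferases, and of Ring1b, which encodes a ubiquitin ligase of Polycomb repressive complex 1 (PRC1). They carried a control shRNA or one that targets Ring1a, the paralog of Ring1b, delivered by lentivirus and followed by blasticidin selection. Each was grown without DS3201 or with it at 1 uM for 7 days. DS3201 inhibits EZH1 and EZH2, the H3K27 methyltransferases of Polycomb repressive complex 2 (PRC2). The 4 groups of 2 libraries are thus control shRNA, Ring1a shRNA, control shRNA with DS3201, and Ring1a shRNA with DS3201. As its title states, the series concerns how PRC1 and H3K27me3, the mark that PRC2 places, keep chromatin silent in cells without H3K9 methylation. All groups carry the 6 labelled knockouts, so the data hold no comparison with cells that keep H3K9 methylation. The labels do not say whether the line is 1 clone or whether replicate libraries came from separate cultures, so p-values measure the spread between libraries, which may be technical.

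An intact DNA transposon encodes a transposase that binds the terminal inverted repeats of the element, cuts it out and inserts it elsewhere. Many subfamilies are short nonautonomous derivatives that kept the ends and lost the transposase gene. In mammals, hAT elements (Charlie, Tip100, Blackjack) and Tc1/mariner elements (Tigger, Tc2, Mariner) make up most of the class, with smaller numbers of piggyBac and Mutator-like (MULE, MuDR) copies. Nearly all are old, mutated and unable to move in mouse. They transpose without an RNA intermediate, so their RNA does not feed new insertions as that of LINE and LTR elements can.

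Total counts per library ran from 12738585 to 23688253, and the class took 16710 to 25275 counts, or 0.0985% to 0.149% of a library. The table gives 1 count per subfamily over all copies. Reads from an element's own start and reads from copies that lie inside introns or untranslated exons of genes therefore cannot be told apart. Levels below are counts scaled by library size (CPM), not corrected for copy number or length, so an order of levels between subfamilies is not an order per copy. Libraries fell into 2 sets by the prefix of their columns, set 20 and set 28, and 1 library stood apart. The set 28 library of control shRNA with DS3201 had a LINE level of 30147 CPM against 10216 to 13955 CPM in the other 7, and a scaling factor of 0.889, the lowest of the 8. Ring1, the gene targeted by the Ring1a shRNA (mm10 chromosome 17, 34020792 to 34024680, minus strand), measured 4.51 and 1.41 CPM with the shRNA against 20.2 and 9.73 CPM with the control shRNA. With DS3201 it measured 3.52 and 2.04 CPM against 20.4 and 7.51 CPM. The summed level of 9 fibroblast markers was 19052 to 21333 CPM without DS3201 and 12331 to 14913 CPM with it. The lists for other cell types summed to at most 21.9 CPM in any library. For DS3201 averaged over both shRNAs, edgeR without the block called the fibroblast gene Pdgfrb lower (log2 fold change -1.50, adjusted p = 0.00794) and Lyz2 of the blood list higher (4.99, adjusted p = 0.00664). Cd68 and Ptprc, also of the blood list, did not pass (-0.94, adjusted p = 0.528, and 0.76, adjusted p = 0.640). With the block 6 of 8 tested fibroblast markers were called lower, as were 636 of all 15287 entries. Des of the muscle list was called higher (0.84 ± 0.21, edgeR with block, adjusted p = 0.0352). The part of these cell-state differences in the repeat values was not tested.

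Of the 204 subfamilies, 143 passed the filter on low counts and were tested. The other 61 had at most 65 counts over all 8 libraries together, and 9 of them had 0 counts in every library. The tested members were mostly rare transcripts. A mean level under 1 CPM was found for 29, a level of 1 to 10 CPM for 85 and a level of at least 10 CPM for 29. Counts were concentrated, with 2 members holding 21.4% of the class, 10 members 51.1% and 20 members 66.9%. Of 197 distinct names, 7 stand under 2 families, among them the Ricksha group, which is listed under MuDR and MULE-MuDR. Where such names occur below, the family is given.

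The hAT-Charlie family dominated the class, with 73 subfamilies, 58 of them tested, and 67.9% of the class counts. TcMar-Tigger followed with 44 subfamilies, 37 tested, and 19.0% of the counts. The next were hAT-Tip100 (31 subfamilies, 4.28% of counts), TcMar-Mariner (3 subfamilies, 2.96%), hAT-Blackjack (8 subfamilies, 1.79%), hAT without further assignment (8 subfamilies, 1.54%) and TcMar-Tc2 (8 subfamilies, 1.09%). Each of the other 6 families held less: TcMar 0.389%, unassigned DNA 0.334%, MULE-MuDR 0.294%, PiggyBac 0.217% and MuDR 0.169%. TcMar-Pogo, with a single subfamily and 0.00318% of the counts, had no tested member.

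The highest levels belonged to a pair of short nonautonomous rodent hAT elements, URR1A and URR1B. URR1B measured 102 and 121 CPM with the control shRNA (set 20, then set 28, the order used throughout), 114 and 133 with the Ring1a shRNA, 121 and 180 with the control shRNA and DS3201, and 130 to 133 with both treatments. URR1A measured 96.0 and 112, 105 and 130, 120 and 185, and 131 and 138 CPM in the same order of groups. In both, the set 28 library of control shRNA with DS3201 was the highest of the 8, and the libraries with and without DS3201 overlapped.

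Behind them came MER20 and MER5A, nonautonomous hAT-Charlie elements found across placental mammals, and MER2, a short relative of the Tigger elements. MER20 measured 49.0 and 62.9 CPM with the control shRNA, 54.5 and 67.1 with the Ring1a shRNA, 58.4 and 70.4 with the control shRNA and DS3201, and 60.0 and 65.8 with both. MER5A was the steadiest of the 5, with 50.3 to 53.8 CPM in the 4 libraries without DS3201 and 55.4 to 62.1 CPM in the 4 with it. MER2 measured 44.5 to 53.8 CPM without DS3201 and 51.9 to 73.9 CPM with it. The levels of MER20, MER5A and MER2 overlapped one another, as did those of URR1A and URR1B, while each of the latter exceeded the former 3 in every library.

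Summed over all 204 subfamilies, the class measured 1042 ± 113 CPM (SD, n = 2) with the control shRNA, 1121 ± 133 with the Ring1a shRNA, 1396 ± 396 with the control shRNA and DS3201, and 1213 ± 25.3 with both. By library these were 962 and 1121, 1027 and 1215, 1116 and 1676, and 1195 and 1231 CPM. At this scaling the libraries with both treatments lay above those with the control shRNA alone, and every other pair of groups overlapped. Set 28 was above set 20 in every group. As shares of library totals the values were 0.0985% and 0.109%, 0.107% and 0.122%, 0.117% and 0.149%, and 0.124% and 0.123%. By that measure treated libraries lay above untreated ones for each shRNA, though only just with the Ring1a shRNA. With both treatments set 28 was then below set 20. In bulk RNA a higher level in all cells and a larger share of cells with the RNA cannot be told apart.

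**Figure D1:**
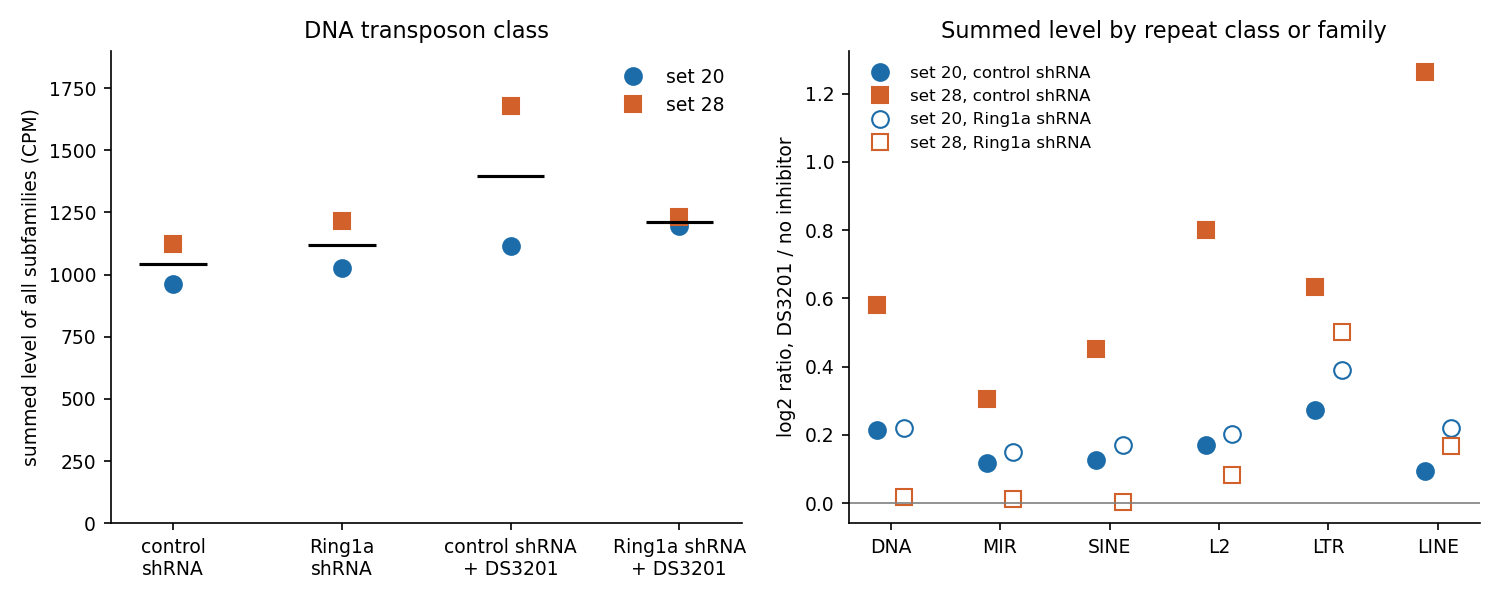
Left, the summed level of the DNA class (CPM, linear axis from 0) in each library by group, with circles for set 20, squares for set 28 and a bar at the group mean. Right, the log2 ratio of the summed level with DS3201 over that without it, by repeat class or family, within each set and shRNA (open symbols for the Ring1a shRNA). In set 28 with the control shRNA the DNA class stood at 0.58, below LINE at 1.26, while with the Ring1a shRNA it was at 0.02.

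The first comparison asked what DS3201 did with the control shRNA in place. The class level was 16.0% higher in set 20 and 49.5% higher in set 28, or 0.21 and 0.58 on the log2 scale. By subfamily, 125 of the 143 tested members had a higher fitted level, with a median log2 fold change of 0.41 and a range from -0.75 to 3.32. The median standard error of a member was 0.49. Over all 15287 entries tested the median was 0.07, with 8499 higher. Within sets the members' median was 0.25 in set 20 and 0.56 in set 28, and 92 members were higher in both sets against 7 lower in both. Much of this rested on the set 28 library of control shRNA with DS3201. Without it, 83 of the same 143 members were higher and their median was 0.07.

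No member passed the test there (edgeR's quasi-likelihood test, Benjamini-Hochberg adjustment over all entries, threshold 0.05), where 0.726% of all entries were called. At an unadjusted p under 0.05 there were 7 members higher and 0 lower, against 1576 higher and 325 lower of all 15287 entries. DESeq2 called 1 member, Ricksha_c, and 5.22% of all entries. With the set entered as a replicate block 6.62% of all entries rose in edgeR, and 1 member, Tigger16a, did. That 1 of 143 is a smaller share than the background. The smallest p-values belonged to Ricksha_c (log2 fold change 3.32 ± 0.90 SE, edgeR adjusted p = 0.173) and BLACKJACK (2.08 ± 0.66, edgeR adjusted p = 0.245).

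Ricksha_c, a Mutator-like element listed here under MULE-MuDR, had the largest difference of the class. It measured 0.380 and 0.336 CPM with the control shRNA and 0.609 and 1.08 CPM with the Ring1a shRNA. With DS3201 it measured 3.51 and 3.80 CPM in the control cells and 7.09 and 1.21 CPM in the knockdown. These values rest on 5 to 16 counts per library without DS3201 and on 19 to 113 counts with it. All 4 libraries with DS3201 were above all 4 without, though the lowest of them lay just above the highest of the others. The second listing of the name, under MuDR, had 0 counts in every library.

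Tigger16a, a nonautonomous member of the pogo-related Tigger family, measured 1.57 and 0.940 CPM with the control shRNA and 7.99 and 2.91 CPM after DS3201 was added. With the Ring1a shRNA it measured 2.19 and 1.41 CPM without and 5.21 and 2.11 CPM with DS3201. Set 20 was above set 28 in every group, the reverse of the order in the class as a whole, and within each set both treated libraries were above both untreated ones. Its log2 fold change with the control shRNA was 2.11 ± 0.72 (edgeR adjusted p = 0.281), and with the replicate block 2.03 ± 0.37 (edgeR adjusted p = 0.0238).

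BLACKJACK, the namesake of a hAT family, measured 1.57 and 1.95 CPM with the control shRNA, 2.97 and 2.96 with the Ring1a shRNA, 3.34 and 11.6 with the control shRNA and DS3201, and 3.96 and 7.35 with both. Its highest value came from the library that stood apart, and without that library its log2 fold change with the control shRNA was 0.87 in place of 2.08. The groups with and without DS3201 did not overlap, though the lowest treated value, 3.34 CPM, lay just above the highest untreated one, 2.97 CPM. All treated libraries were above all untreated ones for 12.3% of all entries as well. Ricksha_c, Tigger16a and BLACKJACK were named for a small p or a call with DS3201, so the separations given for them are no further support.

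The next comparison was DS3201 with the Ring1a shRNA in place. The summed class level was 16.4% higher with DS3201 in set 20 and 1.34% higher in set 28. Of 143 members 88 were higher, 58 in both sets, and 26 were lower in both. The median log2 fold change was 0.13, with 0.22 in set 20 and -0.01 in set 28, against 0.01 over all entries. It was 0.03 without the set 20 library of Ring1a shRNA alone and 0.24 without that of set 28. No member passed edgeR's test with or without the block, against a background of 0.602% called without it and 6.05% called higher with it. At an unadjusted p under 0.05, 1 member was higher, against 1280 of all 15287 entries. DESeq2 called 0 members and 4.3% of all entries. Ricksha_c came nearest, at 2.31 ± 0.84 (edgeR adjusted p = 0.389), with 3.32 in set 20 and 0.16 in set 28. Kanga1c, a Tc2-type element, was lower by fit, at -1.19 ± 0.55 (edgeR adjusted p = 0.602). Its levels went from 1.26 and 1.95 CPM to 0.753 and 0.639 CPM.

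**Figure D2:**
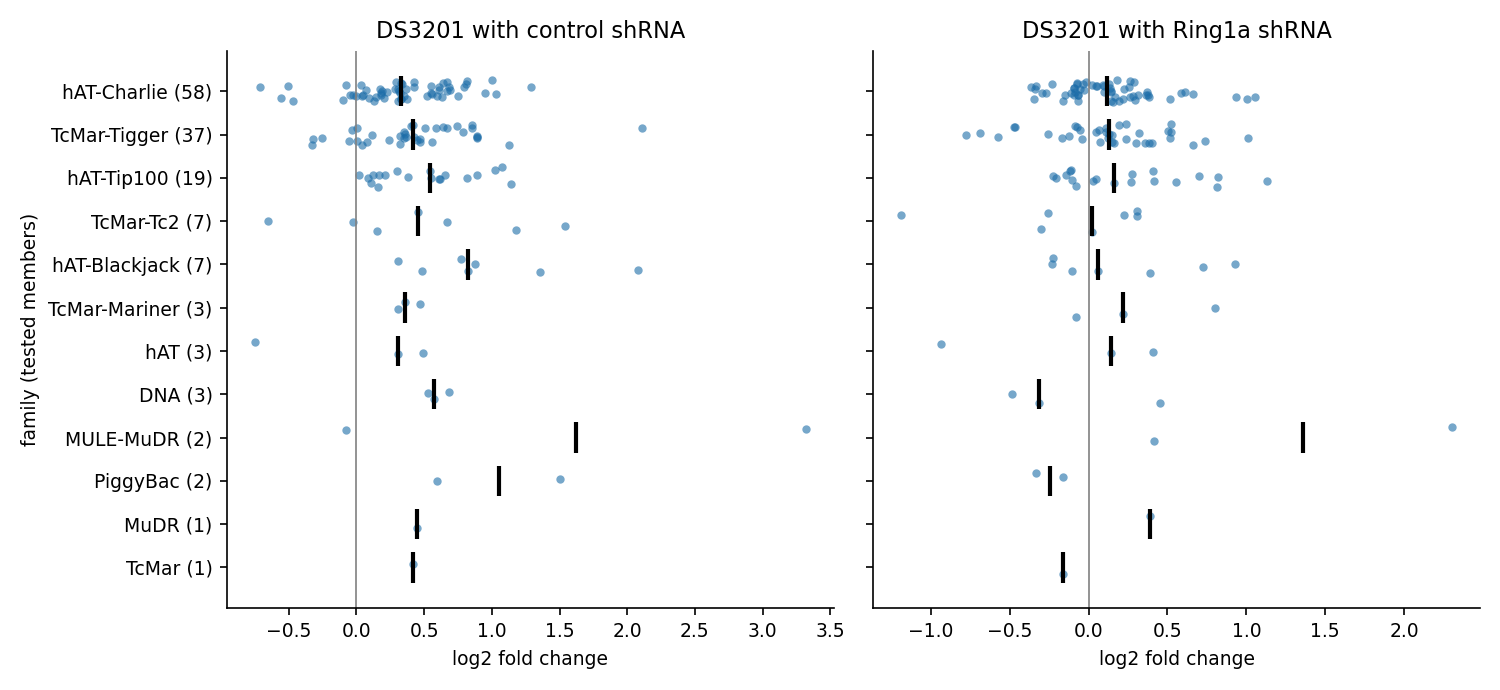
Fitted log2 fold change of each of the 143 tested subfamilies by family (points, spread vertically only for display; bar, family median; number tested in brackets), for DS3201 with the control shRNA (left) and with the Ring1a shRNA (right, a different axis range). The point at 3.32 on the left and 2.31 on the right is Ricksha_c. Most families lie between 0 and 1 on the left, which includes the library that stood apart, and around 0 on the right.

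By family, the medians of the larger families and of TcMar-Mariner with the control shRNA ran from 0.33 to 0.82. They were 0.33 for hAT-Charlie (49 of 58 higher), 0.42 for TcMar-Tigger (32 of 37), 0.54 for hAT-Tip100 (19 of 19), 0.82 for hAT-Blackjack (7 of 7), 0.45 for TcMar-Tc2 (5 of 7) and 0.35 for TcMar-Mariner (3 of 3). With the Ring1a shRNA the same families had medians of 0.11, 0.13, 0.16, 0.06, 0.02 and 0.22, and with the block that of TcMar-Tc2 was -0.0075. The control shRNA values include the library that stood apart. In set 20 the summed hAT-Charlie level differed by 0.19 with the control shRNA and 0.20 with the Ring1a shRNA, and TcMar-Tigger by 0.27 and 0.29. For hAT-Tip100 these were 0.33 and 0.15, and for hAT-Blackjack 0.64 and 0.24. The other families had 1 to 3 tested members. Unassigned DNA, hAT, MuDR and TcMar had medians of 0.57, 0.31, 0.45 and 0.41 with the control shRNA. With the Ring1a shRNA these were -0.32, 0.14, 0.39 and -0.17. The PiggyBac pair had a median of 1.05 with the control shRNA and -0.25 with the Ring1a shRNA. Its summed level with the control shRNA differed by -0.05 in set 20 and 1.58 in set 28. The MULE-MuDR pair, of which Ricksha_c is 1 member, had medians of 1.62 and 1.36. Differences between families were not tested.

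Averaging the effect of DS3201 over both shRNAs uses all 8 libraries. The median of the members was 0.26, with 0.23 in set 20 and 0.27 in set 28, and 118 of 143 were higher, against a median of 0.04 over all entries. Without the library that stood apart 87 of the 143 were higher, at a median of 0.06. In edgeR without the block 5.46% of all entries and 0 members were called. At an unadjusted p under 0.05, 7 members were higher and 0 lower, against 2028 higher and 678 lower of all 15287 entries. With the block 12.9% of all entries and 5 of 143 members rose, again a smaller share among the members. DESeq2 called 2 members, Ricksha_c and BLACKJACK, against a background of 10.5%.

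The 5 members that rose with the block came from 4 families. Ricksha_c had a log2 fold change of 2.76 ± 0.58 (edgeR with block, adjusted p = 0.0193; without block 2.81 ± 0.61, adjusted p = 0.0525), and it was not called with the block when the library that stood apart was left out. Tigger16a rose by 1.49 ± 0.26 (edgeR with block, adjusted p = 0.00977), with 1.74 in set 20 and 1.03 in set 28. BLACKJACK rose by 1.36 ± 0.33 (edgeR with block, adjusted p = 0.0324). Arthur1 and MER63D differed less.

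Arthur1, a hAT-Tip100 element, rose by 0.99 ± 0.23 (edgeR with block, adjusted p = 0.0301). It measured 1.52, 1.61, 1.71 and 2.02 CPM in the libraries without DS3201 and 3.74, 3.18, 3.20 and 3.39 CPM in those with it. Within each group its 2 libraries lay close together and the treated libraries were well apart from the untreated ones. Arthur1 was named because the block fit called it in this comparison, so the separation is no further support. For 12.3% of all entries the treated libraries likewise lay above all untreated ones. MER63D, of the hAT-Blackjack family, rose by 0.97 ± 0.22 (edgeR with block, adjusted p = 0.0247). It measured 2.80 and 3.62 CPM with the control shRNA, 3.41 and 4.24 with the Ring1a shRNA, 5.44 and 11.0 with the control shRNA and DS3201, and 4.40 and 8.24 with both, so that set 28 was the higher in each group. Without the library that stood apart, which leaves a lone library in its group, the block fit gave smaller or similar values. They were 1.57 for Tigger16a, 0.97 for BLACKJACK, 1.04 for Arthur1 and 0.82 for MER63D.

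**Figure D3:**
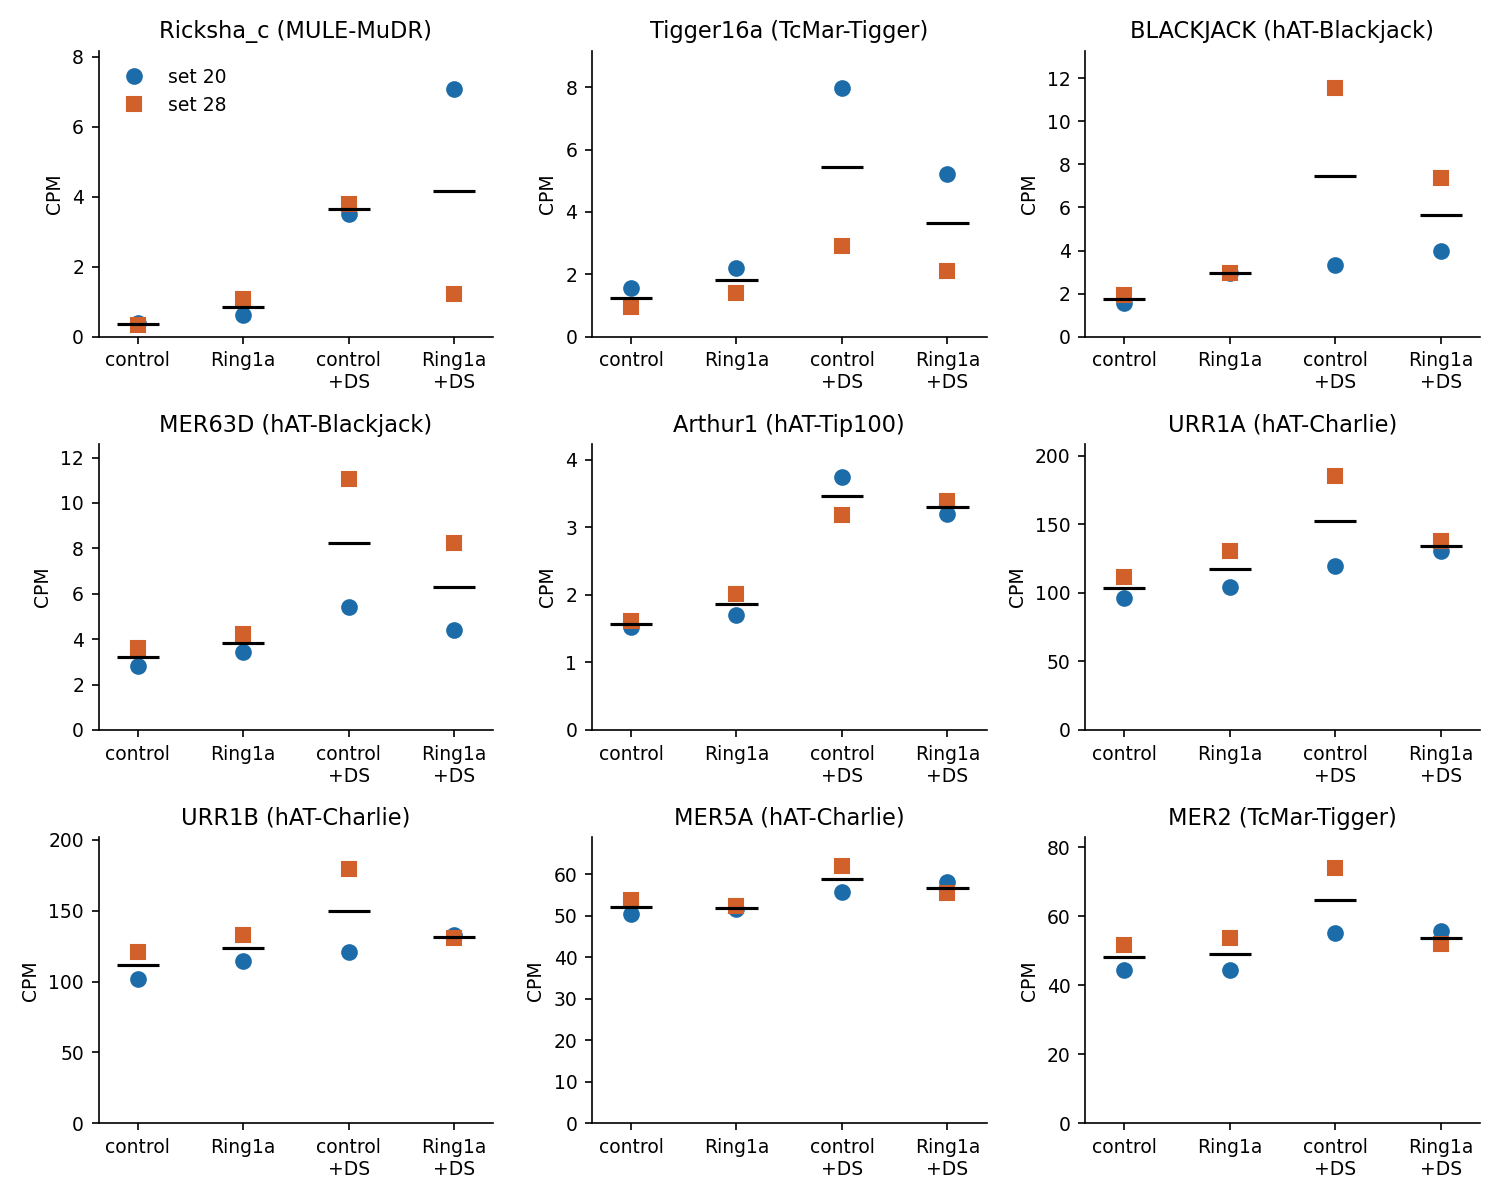
Level in CPM (linear axes from 0, each panel its own) of 9 subfamilies in each library, by group; DS stands for DS3201, circles are set 20, squares set 28 and bars the group means. Ricksha_c, BLACKJACK, MER63D, Arthur1 and MER5A have all treated libraries above all untreated ones, while Tigger16a, URR1A, URR1B and MER2 overlap.

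All 4 libraries with DS3201 lay above all 4 without it for 17 of the 143 members, 11.9%. The same held for 12.3% of all entries tested, so the members' share was at the background. Without the library that stood apart, the other 3 treated libraries were above all untreated ones for 18 members, 12.6%, and for 15.4% of all entries. No member had all 4 treated libraries below the others, where 5.28% of all entries did, and neither had any of the 894 repeat subfamilies tested. The 17 were spread over the families, with 4 of 37 in TcMar-Tigger (Tigger13a, Tigger17c, Tigger19a and MamRep434), 4 of 19 in hAT-Tip100 (Arthur1, MER45B, MER96 and Zaphod), 3 of 58 in hAT-Charlie (Charlie12, MER5A and MER113A) and 2 of 7 in hAT-Blackjack (BLACKJACK and MER63D). The remaining 4 were MADE2 (TcMar-Mariner), MER99 (hAT), Ricksha (MuDR) and Ricksha_c.

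The better measured members showed small differences. With the control shRNA all 29 members of at least 10 CPM had a higher fitted level with DS3201, at a median of 0.33, whereas all entries of that level had a median of -0.02. Within sets their medians were 0.15 and 0.54, and 23 of the 29 were higher in both sets. Without the library that stood apart 17 of the 29 were higher and their median was 0.01. With the Ring1a shRNA their median was 0.09, with 0.17 and -0.03 by set. Members of 1 to 10 CPM had a median of 0.45 with the control shRNA against 0.30 over entries of that level. Members under 1 CPM had 0.47 against 1.34. A rare entry can pass the low-count filter through the group where it is high. These medians are therefore in part set by the filter, and no conclusion is drawn from them.

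Among the abundant members, URR1A had an averaged log2 fold change of 0.37 ± 0.18 (edgeR adjusted p = 0.365) and URR1B one of 0.26 ± 0.17 (edgeR adjusted p = 0.508). MER5A stood at 0.15 ± 0.12 (edgeR adjusted p = 0.583), MER20 at 0.13 ± 0.16 (edgeR adjusted p = 0.752) and MER2 at 0.28 ± 0.16 (edgeR adjusted p = 0.438). RCHARR1, a rodent Charlie element, measured 31.4 to 49.2 CPM without DS3201 and 40.4 to 73.9 CPM with it, at 0.36 ± 0.23 (edgeR adjusted p = 0.504). None of these passed with the block either, and in all 6 the highest value came from the library that stood apart.

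Charlie1 and Tigger1 are the long, once transposase-encoding elements of their families. Charlie1 measured 9.55 to 12.9 CPM without and 10.5 to 17.8 CPM with DS3201 (0.23 ± 0.24, edgeR adjusted p = 0.696). Tigger1 measured 10.9 to 13.0 CPM without and 9.20 to 16.3 CPM with it (0.03 ± 0.20, edgeR adjusted p = 0.957). Both overlapped between treated and untreated libraries, and leaving out the library that stood apart gave -0.02 for Charlie1 and -0.13 for Tigger1.

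**Figure D4:**
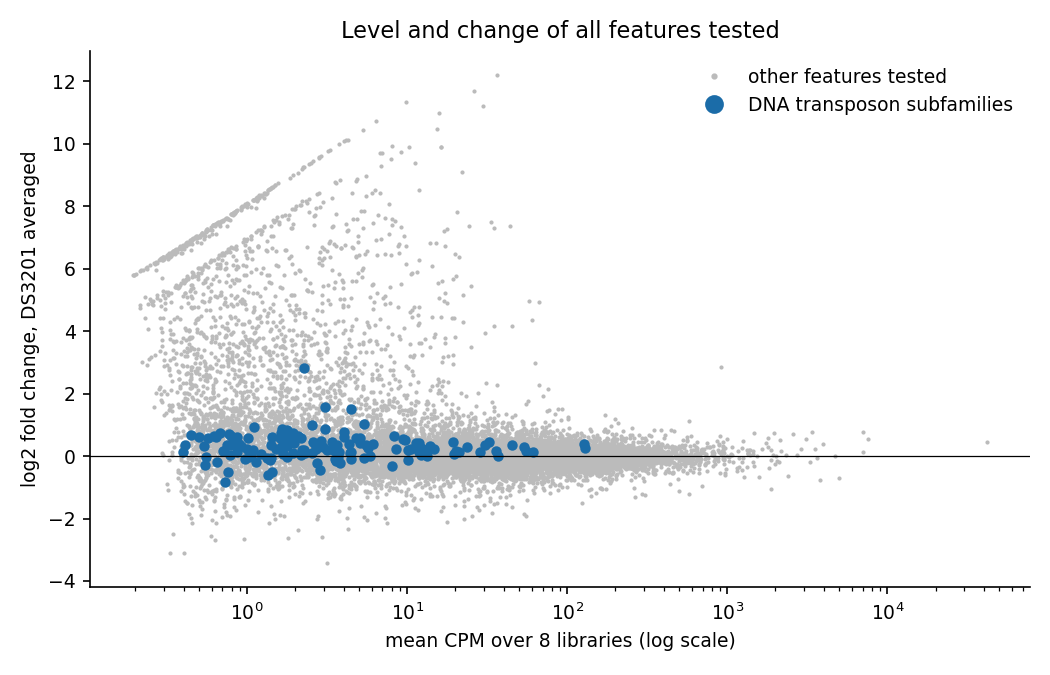
Mean level over the 8 libraries (CPM, log axis) against the fitted log2 fold change for DS3201 averaged over both shRNAs, with the 143 DNA transposon subfamilies over the other features tested. The subfamilies lie mostly between -1 and 1, with Ricksha_c at 2.81 the highest, while many other features of the same level reach far higher values.

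The place of the DNA class among the repeat classes depended on the set. With the control shRNA the median log2 fold change was 0.70 for LINE, 0.55 for LTR and 0.27 for SINE subfamilies, next to 0.41 for the members. The old non-DNA families L2 (4 tested) and MIR (4 tested) had medians of 0.55 and 0.18. In set 20 alone, which does not hold the library that stood apart, the summed levels differed by 0.21 for DNA, 0.09 for LINE, 0.13 for SINE, 0.27 for LTR, 0.17 for L2 and 0.12 for MIR. In set 28 the same differences were 0.58, 1.26, 0.45, 0.63, 0.80 and 0.30. With the block and both shRNAs averaged, 75 of 553 LTR, 6 of 143 LINE and 2 of 35 SINE subfamilies rose, next to the 5 of 143 members. Over all entries 1974 of 15287 rose in that fit, or 12.9%. The share with all treated libraries above all untreated ones was 20.6% of LTR, 25.9% of LINE and 2.86% of SINE subfamilies and 0% of L2 and MIR, beside 11.9% of the members and 12.3% of all entries. Differences between classes were not tested.

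Across subfamilies the sets agreed only loosely. The correlation of the DS3201 difference in set 20 with that in set 28 was r = 0.318 with the control shRNA and r = 0.251 with the Ring1a shRNA over 143 members, against 0.671 and 0.774 over all entries. These are descriptions across entries that share libraries, and rare members carry counting error. For the 29 members of at least 10 CPM the values were -0.03 and 0.37. In a principal component analysis of the members the first component (46.0% of the variance) separated set 20 (-5.13 to -1.97) from set 28 (1.56 to 6.70). Within each set and shRNA the library with DS3201 had the higher score on this component and also on the second (24.9% of the variance), in 4 of 4 pairs each.

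**Figure D5:**
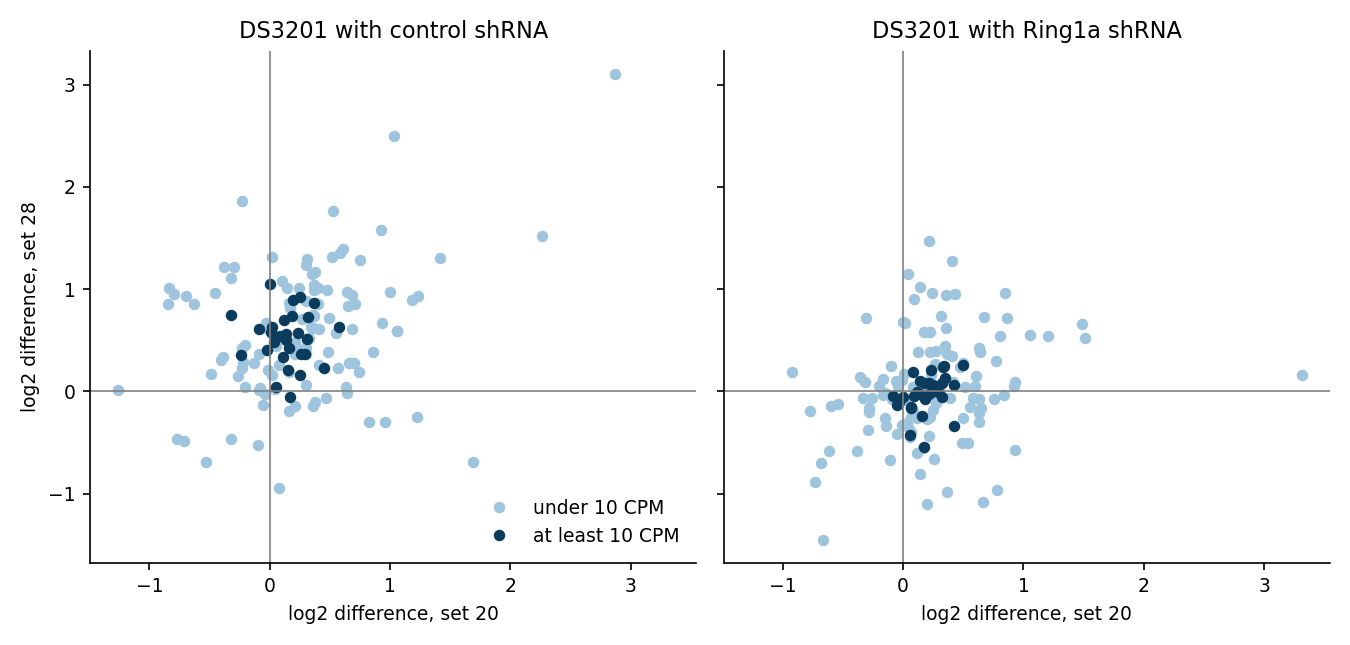
Log2 difference of each tested subfamily with DS3201 against without it, in set 20 (horizontal) and set 28 (vertical), for the control shRNA (left) and the Ring1a shRNA (right); dark points are the 29 subfamilies of at least 10 CPM. With the control shRNA most points lie in the upper right quadrant (92 of 143 higher in both sets), with the Ring1a shRNA they lie around 0 on the vertical axis.

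The knockdown of Ring1a without DS3201 was accompanied by small differences. The summed level was 6.71% higher in set 20 and 8.30% higher in set 28. Of 143 members 93 were higher, at a median log2 fold change of 0.08 against 0.01 over all entries. Leaving out the set 20 control library gave a median of -0.02, and leaving out the set 28 knockdown library -0.04. In edgeR with and without the block 0 members and 0% of all entries were called, and DESeq2 called 0 members and 0.00654% of all entries. Ring1, the target of the shRNA, was thus not called by edgeR. Its log2 fold change was -2.32 ± 0.76 without the block and -2.42 ± 0.29 with it (edgeR with block, adjusted p = 0.705). The absence of calls is therefore no sign that nothing changed. At an unadjusted p under 0.05 there were 0 members, against 103 higher and 52 lower of all 15287 entries. Kanga1a, a Tc2-type element, had the smallest p, measuring 0.523 and 0.470 CPM before and 1.06 and 1.14 CPM after knockdown (1.13 ± 0.52, edgeR adjusted p = 1). Tigger17b was next, with 0.760 and 0.470 against 1.38 and 1.01 CPM (0.95 ± 0.58, edgeR adjusted p = 1). The libraries of the 2 groups did not overlap in either. Both were picked for the smallest p of this comparison, so the separation is no further support.

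In the presence of DS3201 the knockdown gave opposite directions in the 2 sets. The summed level was 7.11% higher in set 20 and lower in set 28, at -26.6%. The members' median was 0.09 in set 20 and -0.43 in set 28, and -0.18 by fit, with 40 of 143 higher. Without the set 28 library of control shRNA with DS3201 the fitted median was 0.18, so the direction of the class changed with that library. No member and 0% of all entries were called by edgeR with or without the block, and DESeq2 called 0 members and 0.0327% of all entries. Ring1 was again not called by edgeR, at -2.33 ± 0.76 without the block and -2.22 ± 0.30 with it. At an unadjusted p under 0.05, 1 member was lower, against 148 of all 15287 entries. That member was MER115, a hAT-Tip100 element with 8.10 and 17.6 CPM in the control shRNA cells with DS3201 and 5.46 and 6.26 CPM in the knockdown cells with DS3201 (-1.13 ± 0.43, edgeR adjusted p = 1.0). Its value without the library that stood apart was -0.43. MER94, of the Blackjack family, measured 4.19 and 4.68 against 2.45 and 2.36 CPM (-0.88 ± 0.39, edgeR adjusted p = 1.0).

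Both treatments together were then compared with the control shRNA alone. The summed level was 24.2% higher in set 20 and 9.75% higher in set 28. Of 143 members 105 were higher, 70 of them in both sets and 17 lower in both, and the median was 0.21 against 0.02 over all entries. Without the set 20 control library the median was 0.10, and without the set 28 control library 0.36. Without the block 1.46% of all entries and 0 members were called by edgeR. At an unadjusted p under 0.05, 4 members were higher and 0 lower, against 1596 higher and 426 lower of all 15287 entries. With the block 9.21% of all entries and 2 members rose. These were Ricksha_c at 3.39 ± 0.86 (edgeR with block, adjusted p = 0.0490) and Tigger16a at 1.48 ± 0.37 (edgeR with block, adjusted p = 0.0489). With the block and without the library that stood apart, which is in neither group but enters the shared estimate of the spread, the count was 5 (of 3804 entries called in that fit), namely BLACKJACK, MER5B, MER33, Tigger16a and URR1A. DESeq2 called 1 member, Ricksha_c, and 6.83% of all entries. Kanga1a, which did not pass, went from 0.523 and 0.470 to 1.63 and 1.09 CPM (1.44 ± 0.53, edgeR adjusted p = 0.296).

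The interaction term tests whether the effect of DS3201 differed between the shRNAs. Its median over the members was -0.31, with 0.01 in set 20 and -0.56 in set 28, against -0.07 over all entries. Without the library that stood apart it was 0.04. No member and 0% of all entries were called by edgeR with or without the block, and DESeq2 called 0. At an unadjusted p under 0.05 there were 0 members, against 9 higher and 14 lower of all 15287 entries. The smallest p-values were those of MER63B (-1.05 ± 0.56) and Kanga1a (-1.23 ± 0.73), both with an edgeR adjusted p = 1.0. The comparisons above share control libraries, so their values for a member are not independent of one another.

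Host genes tied to this class were followed in 2 lists. Genes that arose from domesticated transposases, among them Pogz, Cenpb, the Tigd and Thap genes and the recombinase genes Rag1 and Rag2, were represented by 28 of the 29 listed genes, and 24 were tested. None passed edgeR without the block in any comparison, and their median was -0.05 for DS3201 with the control shRNA, 0.02 with the Ring1a shRNA and -0.01 averaged. With the block, in the average alone, 2 of the 24 rose, a smaller share than the 12.9% of all entries. Of these 2, Setmar has its transposase part in primates only, so the mouse gene is on the list by name alone. Pogk, a pogo-derived gene with a KRAB domain (mm10 chromosome 1, 166384622 to 166409863, minus strand), rose by 0.46 ± 0.12 (edgeR with block, adjusted p = 0.0387). It measured 51.8 and 106, 64.2 and 115, 68.5 and 161, and 87.1 and 149 CPM in the 4 groups, with set 28 always the higher. Setmar, which encodes a SET-domain protein joined to a mariner transposase in primates only (chromosome 6, 108065045 to 108077122, plus strand), rose by 0.88 ± 0.23 (edgeR with block, adjusted p = 0.0406). It measured 1.95 to 2.48 CPM in the libraries without DS3201 and 2.72 to 4.92 CPM in those with it, with no overlap. Setmar was named for its call, so this separation is no further support.

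The genes of repeat silencing, such as Trim28, Dnmt1, Uhrf1, the HUSH component Mphosph8 and the HP1 genes Cbx1, Cbx3 and Cbx5, numbered 14, and all were in the table and tested. They include Setdb1, a gene the labels give as knocked out, whose RNA was still counted at 4.33 to 13.1 CPM in the 8 libraries. None was called with or without the block in any comparison. Their median was 0.13 for DS3201 with the control shRNA, -0.02 with the Ring1a shRNA, 0.03 averaged and -0.10 for both treatments together.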

How the data were processed

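Poly(A) RNA-seq libraries were made with a KAPA mRNA kit, per the labels. The submitters' processing notes name Trim Galore for trimming, TopHat2 for alignment and the build mm10, without versions. The authors deposited raw counts, whole numbers per gene and repeat subfamily. Which program counted the reads, how it treated reads that map to several places, and which repeat annotation it used is not given in the sources used here. Such a rule could shift counts between related subfamilies. Groups follow the labels. Columns were assigned to groups by name, and 8 further columns matched no labelled sample and were not used.

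Tests used edgeR 4.0.16 in R 4.3.3 (filterByExpr, TMM, quasi-likelihood, robust, 1 term per group, 8 libraries, 15287 entries, two-sided, Benjamini-Hochberg, threshold 0.05). CPM uses the TMM-scaled library size. Within-set log2 differences use a prior count of 2. Standard errors come from the log2 fold change and the F statistic. DESeq2 1.42.0 and a fit with the column prefix as replicate block were alternatives. Replicates 1 and 2 are batches 1 and 2 in the labels, which leave unsaid which prefix is which. The prefix was taken to pair libraries because the difference between sets correlated between groups, with r from 0.558 to 0.897 over all entries. Gene positions are from the GENCODE annotation of the same build. The test script was tested on simulated data.

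Members named are those called in any fit with or without the block, the 5 of highest mean CPM, the 2 of smallest p in a comparison without calls, and a fixed list. The full 17 of the non-overlap count, and MER33 and MER5B, called in an added fit, were chosen after their values were seen. The members and lists were chosen with earlier results of these data known.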

Additional observations from a re-analysis of the deposited data

Results flagged for a closer look

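Only the named members were searched here. For 4 of them the 2 sets moved one way under 1 condition and the opposite way under the other. Their interaction terms did not pass the test (edgeR adjusted p = 1.0 without the block and 0.990 with it, for each of the 4). MER63B was named for its small p in the interaction and MER94 for that in the knockdown with DS3201, which favours this pattern. How often it occurs over all members or all entries was not counted. In Tigger16a the log2 difference of knockdown against control shRNA was 0.4546 and 0.5285 without DS3201 (set 20, then set 28) and -0.6047 and -0.4528 with it. In MER63D it was 0.2725 and 0.2183 without and -0.2996 and -0.4186 with DS3201.

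MER63B and MER94, like MER63D, are subfamilies of the hAT-Blackjack family. In MER63B the knockdown difference was 0.4309 and 0.001816 without DS3201, and -0.55 and -1.088 with it. Its difference with DS3201 was 0.9332 and 0.6686 with the control shRNA, and -0.04775 and -0.4209 with the Ring1a shRNA. In MER94 the difference with DS3201 was 0.1713 and 0.8135 with the control shRNA and -0.1663 and -0.03361 with the Ring1a shRNA. The value of 0.001816 in MER63B is close to 0.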

How the results depend on the processing

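Group means of the summed class level stayed within the SD of their group under the 3 other scalings. With library totals only, the overlap of groups and the order of sets differed, as given above. With the replicate block, members called were 1 for DS3201 with control shRNA, 2 for both treatments and 5 for DS3201 averaged. It changed no other count of members and no direction of a named member or of the class median. DESeq2 gave 1, 1 and 2. For the average, TMM on gene rows alone gave 1 member (of 864 entries called) and a median of 0.28, and no low-count filter gave 1 member (of 1040) and -0.025 for Tigger1. The block without the set 28 library of control shRNA with DS3201, added after seeing the data, gave counts of 1, 5 and 4, out of 921, 3804 and 4120 entries called. Its medians were 0.15 for DS3201 with control shRNA, 0.13 averaged, 0.091 for the knockdown with DS3201 and 0.00162 for the interaction, the last 2 reversed, and -0.14 for Tigger1.

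Leaving out 1 library at a time, which leaves a lone library assumed to vary like the other groups, gave 0 to 2 members for the average. Medians ran from 0.11 to 0.63 for DS3201 with control shRNA, 0.10 to 0.36 for both treatments, -0.038 to 0.233 for the knockdown, -0.42 to 0.18 for it with DS3201, -0.493 to 0.042 for the interaction and 0.077 to 0.389 for the average. Charlie1 ran from -0.024 to 0.389 and Tigger1 from -0.13 to 0.14. The cause of these moves was not tested. Fits on only the compared libraries called 0 members in the 5 comparisons of 2 groups, but at most 2 of all entries in any of them.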
